A study of Homo sapiens with 6 samples.

Results

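The genes of glycolysis and of the pentose phosphate pathway were followed in MM1.S cells, a human multiple myeloma line, after exposure to either of a pair of inhibitors of the protein disulfide isomerase PDIA1. The members were a fixed list of 31 genes taken by symbol, and 30 of them were listed among the 11048 genes of the expression tables. PFKP, the platelet-type phosphofructokinase, was not listed and has no value here. Of the 30, 22 belonged to glucose uptake, glycolysis and lactate handling, 6 to the pentose phosphate pathway, and 2 were pyruvate dehydrogenase kinases. PolyA-selected RNA was sequenced from cells kept for 6 h with the solvent DMSO, with 3 µM CCF642 or with 3 µM of its derivative CCF642-34, with 2 libraries in each group and no other treatment. The cells came from 1 established line, so the values describe that line at 1 dose and 1 time point. The labels do not say whether the libraries of a group came from separate cultures, so each p-value measures the spread between libraries, which may be technical.

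Glycolysis splits glucose into pyruvate and yields ATP and NADH, and lactate dehydrogenase turns pyruvate and NADH into lactate and NAD+. The pentose phosphate pathway leaves glycolysis at glucose 6-phosphate. Its oxidative arm reduces NADP+ to NADPH, the electron donor for glutathione and thioredoxin reduction and for lipid synthesis, and its non-oxidative arm exchanges sugar phosphates between ribose 5-phosphate and the glycolytic intermediates. HIF-1 and MYC are known to drive many glycolytic genes, and NRF2 is known to drive several pentose phosphate and NADPH genes. Plasma cells use disulfide chemistry in the endoplasmic reticulum to fold antibody chains, and PDIA1 is a central enzyme of that chemistry.

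The libraries held between 20567313 and 28459677 reads. Levels are given as deposited CPM, a gene's reads relative to all reads of its library on a common scale. Comparisons were made with limma on log2(CPM + 1) after scaling the libraries by TMM, a factor that centres the bulk of genes between libraries. The factors were 1.05 in DMSO, 0.957 to 0.962 with CCF642 and 0.987 to 0.992 with CCF642-34, and a CPM is divided by its factor before the fit, so for abundant genes a fitted fold change against DMSO lies above the plain ratio of the printed CPM, and one of CCF642-34 against CCF642 lies below it. P-values were adjusted over all 11048 genes by the Benjamini-Hochberg method with a threshold of 0.05. Fold changes are on that log2(CPM + 1) scale, which understates the change of low genes. All 9 plasma cell markers of a fixed list were listed, as the label of the line implies, and of 10 markers of other cells 5 were listed, at no more than 10.5 CPM. In bulk RNA, a small change in every cell and a larger one in some of the cells cannot be told apart.

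Most glycolytic genes were lower after either inhibitor, whereas the glucose transporter gene SLC2A3 rose strongly and, after TMM scaling, the pentose phosphate genes PGD, TALDO1 and TKT rose slightly. With CCF642, 3 of 22 glycolysis members passed the test higher and 15 lower, and 3 of 6 pentose phosphate members passed higher and 1 lower. With CCF642-34, the counts were 2 higher and 13 lower for glycolysis, and again 3 higher and 1 lower for the pentose phosphate pathway. Both kinases, PDK1 and PDK3, were lower in each comparison. In total 24 of the 30 members passed with CCF642, when 63.1% of all genes did (31.8% higher and 31.3% lower), and 21 passed with CCF642-34, when 57.6% did (29.7% higher and 27.9% lower). A call at this threshold was therefore common in these libraries, and the size of each change is given beside it. Groups without overlap were common too. After TMM scaling, 79.4% of all genes did not overlap between CCF642 and DMSO, beside 90% of the members. For CCF642-34 and DMSO the shares were 78.9% and 96.7%, and between the inhibitors 63.4% and 73.3%. The comparisons with DMSO share the DMSO libraries, so the like counts are not separate observations.

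The median log2 fold change of the glycolysis members was −0.25 with CCF642 and −0.15 with CCF642-34, beside medians of −0.0066 and 0.0067 over all genes. The pentose phosphate median was 0.11 and 0.21. When libraries were scaled by their total alone, the median of all genes itself moved to −0.13 and −0.08, the glycolysis medians to −0.38 and −0.24, and the pentose phosphate medians to −0.03 and 0.13. This scaling shifts all genes about alike. The direction of the pentose phosphate median with CCF642 was not kept, and members called with CCF642 went from 6 higher and 18 lower to 3 and 20. At a fold of 1.5, 7 members were past the threshold with CCF642 (2 higher, 5 lower), when 20.7% of all genes were (11.5% higher and 9.22% lower), and 3 with CCF642-34 (1 higher, 2 lower), when 15.3% were (8.14% higher and 7.19% lower).

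**Figure D1:**
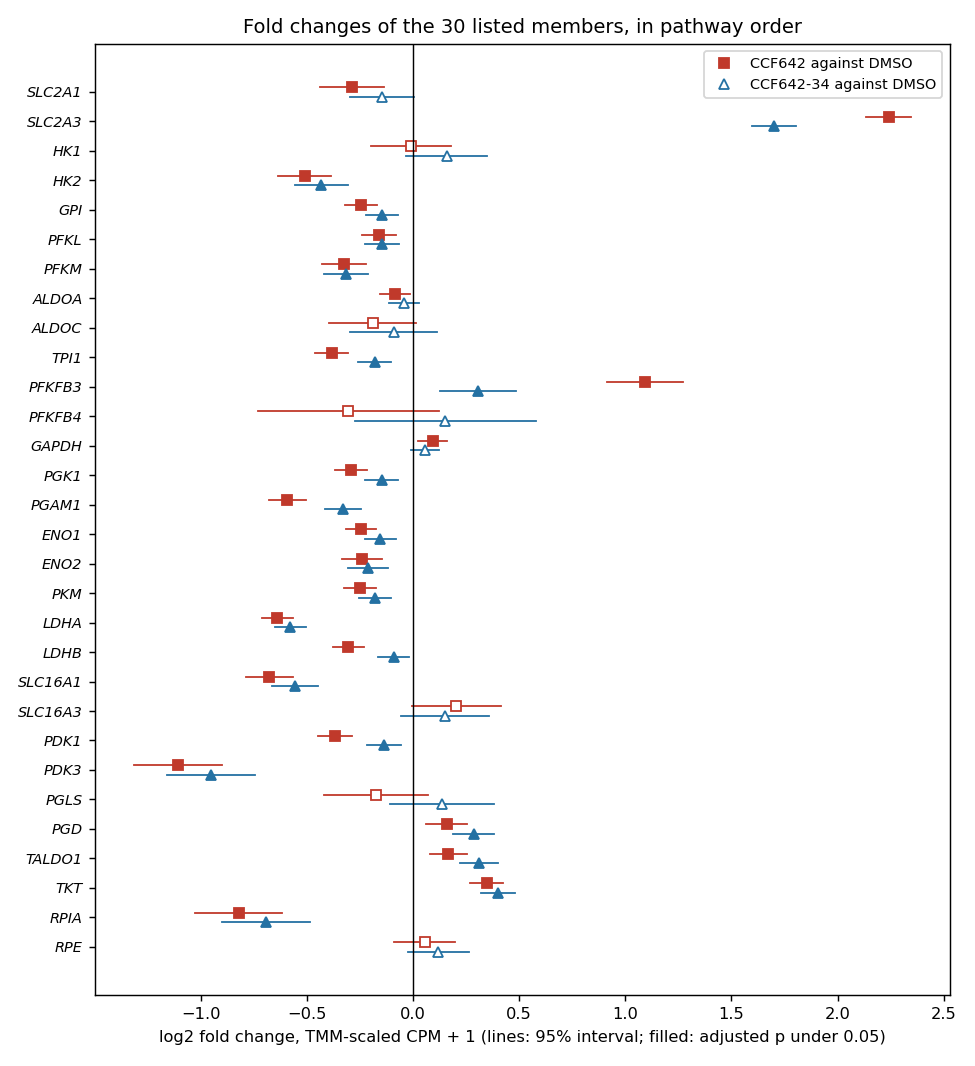
Log2 fold change against DMSO of the 30 listed members, ordered by step, with CCF642 and CCF642-34 side by side and bars for the 95% confidence interval; filled points passed the test (limma adjusted p under 0.05). Most glycolytic genes sit left of 0, SLC2A3 stands far to the right at 2.24 and 1.70, and PGD, TALDO1 and TKT sit right of 0.

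To show the sequence at the start of genes that fell and genes that rose, promoters are printed for LDHA and HK2, which were lower with both inhibitors, and for PGD and TKT, which were higher. Each runs from 250 bases before to 50 after the RefSeq start on GRCh38.p14, read 5′ to 3′ on the gene's strand. LDHA lies at chr11:18394313-18394612 (+), HK2 at chr2:74833877-74834176 (+), PGD at chr1:10398814-10399113 (+) and TKT at chr3:53255973-53256272 (−). Capitals mark matches, on either strand, to ACGTG or GCGTG (the core letters bound by HIF), CACGTG (the E-box bound by MYC, which holds ACGTG on both strands), TGATGNAA (a core bound by ATF4) and TGACNNNGC (a core of the antioxidant response element bound by NRF2).
LDHA: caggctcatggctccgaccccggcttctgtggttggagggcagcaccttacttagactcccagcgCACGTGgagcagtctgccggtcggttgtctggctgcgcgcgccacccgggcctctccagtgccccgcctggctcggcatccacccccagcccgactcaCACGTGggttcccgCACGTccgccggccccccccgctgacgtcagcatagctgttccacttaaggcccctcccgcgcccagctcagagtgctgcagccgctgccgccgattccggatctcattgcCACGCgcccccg
HK2: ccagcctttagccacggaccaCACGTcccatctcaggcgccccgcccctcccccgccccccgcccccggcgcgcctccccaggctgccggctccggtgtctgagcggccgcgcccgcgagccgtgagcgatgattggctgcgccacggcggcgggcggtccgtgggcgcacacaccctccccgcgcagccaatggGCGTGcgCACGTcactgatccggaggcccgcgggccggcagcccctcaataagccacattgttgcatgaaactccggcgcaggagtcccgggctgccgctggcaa
PGD: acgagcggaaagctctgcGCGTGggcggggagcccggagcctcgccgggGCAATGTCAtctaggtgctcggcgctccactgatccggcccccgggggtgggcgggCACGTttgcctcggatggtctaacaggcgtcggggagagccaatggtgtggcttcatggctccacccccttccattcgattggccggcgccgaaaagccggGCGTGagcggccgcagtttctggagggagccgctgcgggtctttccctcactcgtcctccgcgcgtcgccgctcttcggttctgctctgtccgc
TKT: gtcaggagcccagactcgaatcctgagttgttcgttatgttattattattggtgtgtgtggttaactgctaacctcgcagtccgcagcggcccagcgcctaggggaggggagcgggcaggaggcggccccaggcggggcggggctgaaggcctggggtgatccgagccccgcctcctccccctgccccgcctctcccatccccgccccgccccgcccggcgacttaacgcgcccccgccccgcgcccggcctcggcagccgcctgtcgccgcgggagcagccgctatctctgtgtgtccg

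The LDHA promoter held CACGTG at 2 places, which count as 4 of its 5 ACGTG matches, and 1 GCGTG. HK2 held 2 ACGTG and 1 GCGTG, PGD held 1 ACGTG, 2 GCGTG and 1 TGACNNNGC, and TKT held none of these letters in this window. The printed promoters are examples and do not stand for all members that fell or rose. PGAM1, which fell, and TALDO1, which rose, held no match to any of the letters. Among others that fell, RPIA held 1 GCGTG alone, and PDK3 held 1 ACGTG and 1 GCGTG. Promoters were found for 28 of the 30 listed members, without SLC2A3 and SLC16A1. ACGTG was present in 35.7% of the members' promoters, beside 21.6% of all RefSeq promoters and 27.4% of those of genes listed in the tables. GCGTG was in 50% of them (36.3% of all and 51.6% of listed genes), and CACGTG in 10.7%, namely ALDOC, GAPDH and LDHA (7.43% and 10.4%). TGACNNNGC was in 21.4% (13.6% and 15.4%), namely ALDOC, GAPDH, PFKL, PGD, PKM and RPE, of which PFKL and PKM were lower with each inhibitor. TGATGNAA was in HK1 alone among the members, a share of 3.57% (3.67% and 1.6%). These are letter matches, with no binding measured.

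Glucose enters cells through the SLC2A (GLUT) transporters, and the genes for its carriers moved apart. SLC2A3, which encodes the high-affinity GLUT3, had 46.9 and 46.7 CPM in DMSO, 203 and 207 CPM with CCF642, and 142 and 148 CPM with CCF642-34. Its groups did not overlap, and it was 4.72-fold higher with CCF642 (log2 fold change 2.24 ± 0.05 (SE), limma adjusted p = 1.96e-36) and 3.25-fold higher with CCF642-34 (1.70, limma adjusted p = 3.15e-31). It was the only member past a 2-fold change with CCF642-34, where 3.87% of all genes were past it at an unadjusted p under 0.05 (2.59% higher and 1.29% lower). SLC2A1, which encodes the widespread GLUT1, had 45.5 and 45.9 CPM in DMSO, 34.9 and 33.0 with CCF642, and 37.7 and 39.7 with CCF642-34. It fell with CCF642 (log2 fold change −0.29, limma adjusted p = 0.00085), and with CCF642-34 its difference of −0.15 missed the threshold (limma adjusted p = 0.092), but passed it when scaled by library total (−0.23, limma adjusted p = 0.00678). Reads of SLC2A3 can also match its near copy SLC2A14, which was not listed, so their assignment is uncertain.

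Hexokinases trap glucose as glucose 6-phosphate, the branch point of both pathways. HK2, the inducible isozyme bound to mitochondria, had 88.9 and 91.1 CPM in DMSO, 60.2 and 54.5 with CCF642, and 61.6 and 63.3 with CCF642-34. Every treated library was below both DMSO libraries, with log2 fold changes of −0.51 (limma adjusted p = 7.91e-10) and −0.43 (limma adjusted p = 5.64e-08). HK1, the constitutive isozyme, did not pass the test in either comparison, with log2 fold changes of −0.01 and 0.16.

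PFKFB3 encodes the enzyme that makes fructose 2,6-bisphosphate, the activator of phosphofructokinase. It had 20 and 19.8 CPM in DMSO, 39.1 and 40.4 with CCF642, and 25.1 and 21.7 with CCF642-34. It was 2.13-fold higher with CCF642 (log2 fold change 1.09 ± 0.09 (SE), limma adjusted p = 5.8e-15), past 2-fold together with SLC2A3 and, downward, PDK3, where 6.49% of all genes were past it at an unadjusted p under 0.05 (4.5% higher and 1.99% lower). With CCF642-34 the increase was 0.31 (limma adjusted p = 0.0031), and without CCF642-34 replicate 1 it was 0.20 and missed the threshold (limma adjusted p = 0.116). PFKFB4, whose product also acts on fructose 2,6-bisphosphate, lay between 1.06 and 2.23 CPM and passed no test.

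From glucose 6-phosphate to pyruvate, the decreases were small and shared by many steps. Of 14 listed genes for the enzymes from glucose to pyruvate, HK1 and HK2 included, 13 had a fitted change below 0 with CCF642 and 12 with CCF642-34, and their medians were −0.24 and −0.15. PGAM1, the phosphoglycerate mutase, changed most among them with CCF642, from 337 and 325 CPM in DMSO to 197 and 203 CPM, and had 248 and 246 CPM with CCF642-34. Its groups did not overlap, and the log2 fold changes were −0.59 (limma adjusted p = 1.01e-16) and −0.33 (limma adjusted p = 6.39e-09). TPI1, triose phosphate isomerase, fell by 0.38 and 0.18 on the log2 scale, PFKM, the muscle-type phosphofructokinase, by 0.33 and 0.31, and PGK1, phosphoglycerate kinase, by 0.29 and 0.15. GPI, PFKL, ENO1, ENO2 and PKM were lower with each inhibitor too, by 0.14 to 0.25. Without DMSO replicate 2, PGK1 missed the threshold with CCF642-34 (limma adjusted p = 0.0568).

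The aldolase genes and GAPDH showed small or uncertain differences. ALDOA passed the test with CCF642 (−0.09, limma adjusted p = 0.0294), a call lost without either DMSO library or CCF642 replicate 1, and not with CCF642-34 (−0.04). ALDOC passed neither test against DMSO (−0.19 and −0.09). Scaled by library total, ALDOA passed with CCF642-34 (−0.13, limma adjusted p = 0.00087) and ALDOC with CCF642 (−0.32, limma adjusted p = 0.00597). GAPDH, often taken as a constant reference, had 3556 and 3595 CPM in DMSO, 3417 and 3530 with CCF642, and 3493 and 3499 with CCF642-34, so the deposited CPM of every treated library was below DMSO. After TMM scaling it was higher by 0.09 with CCF642 (limma adjusted p = 0.0141) and by 0.06 with CCF642-34 (limma adjusted p = 0.135), but scaled by library total the fitted changes were −0.04 and −0.03, so its direction depends on the scaling. The call with CCF642 was also lost without either DMSO library or CCF642 replicate 2. GAPDH, PGK1, PGAM1, ENO1, PKM, TPI1, ALDOA and LDHA have processed pseudogenes that can share reads with them, which makes their read assignment uncertain.

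Of the 4 genes that turn pyruvate into lactate or carry it across the membrane, LDHA, LDHB and SLC16A1 were lower with each inhibitor. LDHA, whose subunit favours lactate formation, had 1121 and 1108 CPM in DMSO, 653 and 652 with CCF642, and 697 and 706 with CCF642-34. The treated libraries were all far below DMSO, with log2 fold changes of −0.64 ± 0.04 (SE) (limma adjusted p = 7.52e-21) and −0.58 (limma adjusted p = 5.22e-19). SLC16A1, which encodes the lactate carrier MCT1, had 141 and 136 CPM in DMSO, 76.9 and 80.2 with CCF642, and 87.0 and 89.1 with CCF642-34, with log2 fold changes of −0.68 (limma adjusted p = 2.96e-15) and −0.56 (limma adjusted p = 2.14e-12). LDHB, the other lactate dehydrogenase subunit, fell by 0.30 with CCF642 and by 0.09 with CCF642-34 (limma adjusted p = 0.0323 for the latter, which was lost without DMSO replicate 1, DMSO replicate 2 or CCF642-34 replicate 1). SLC16A3, the gene of the lactate exporter MCT4, passed neither test against DMSO with all libraries (0.20 and 0.15). Its change with CCF642 was unsteady, from 0.01 to 0.40 when 1 library at a time was left out.

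The pyruvate dehydrogenase kinases switch off the complex that sends pyruvate into mitochondria, and both listed ones were lower. PDK3 had 30.6 and 32.5 CPM in DMSO, 12.4 and 13.2 with CCF642, and 15.8 and 14.0 with CCF642-34. Its log2 fold changes were −1.11 ± 0.10 (SE) (limma adjusted p = 3.25e-13) and −0.95 (limma adjusted p = 4.27e-11), the furthest below 0 among the members. PDK1 fell by 0.37 with CCF642 and by 0.14 with CCF642-34, the latter with an adjusted p of 0.065 by limma without CCF642-34 replicate 1.

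**Figure D2:**
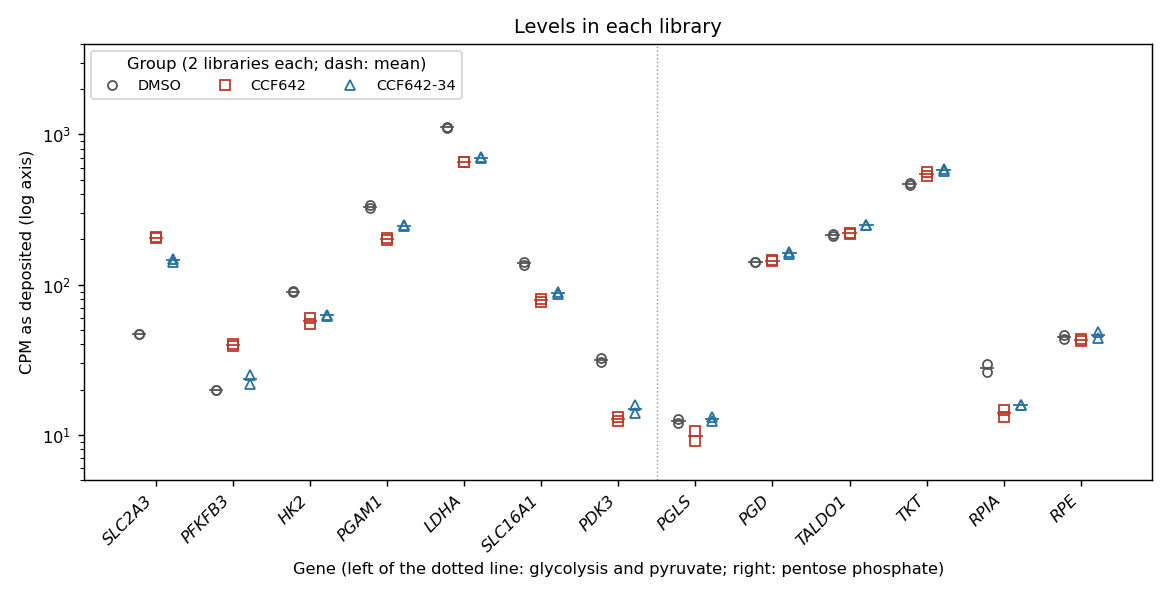
CPM on a log axis in each of the 6 libraries for the members with a change of at least 0.5 on the log2 scale in a comparison and for the pentose phosphate members; each point is 1 library, coloured by group. SLC2A3 rises from 46.9 to 203 CPM with CCF642, LDHA falls from 1121 to 653 CPM, and TKT rises from 464 and 472 CPM to between 526 and 589 CPM in the treated libraries.

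In the oxidative arm of the pentose phosphate pathway, the members were PGLS and PGD. PGD, 6-phosphogluconate dehydrogenase, which makes NADPH, had 141 and 142 CPM in DMSO, 146 and 143 with CCF642, and 165 and 161 with CCF642-34. It rose by 0.16 with CCF642 (limma adjusted p = 0.00343) and by 0.29 with CCF642-34 (limma adjusted p = 1.3e-06), but scaled by library total the change with CCF642 was 0.03 (limma adjusted p = 0.6465). PGLS, the lactonase of the step before it, had 12.7 and 12.0 CPM in DMSO, 9.09 and 10.6 with CCF642, and 13.2 and 12.4 with CCF642-34. It passed neither test against DMSO (−0.17 and 0.14), but scaled by library total it passed with CCF642 (−0.30, limma adjusted p = 0.0292).

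In the non-oxidative arm, the transaldolase and transketolase genes rose and the ribose 5-phosphate isomerase gene fell. TKT, transketolase, had 472 and 464 CPM in DMSO, 526 and 559 with CCF642, and 589 and 572 with CCF642-34, with log2 fold changes of 0.35 (limma adjusted p = 1.05e-10) and 0.40 (limma adjusted p = 2.59e-12). All its treated libraries were above DMSO, and it stayed past the threshold when scaled by library total (0.21 and 0.31). TALDO1, transaldolase, had 210 and 218 CPM in DMSO, 221 and 218 with CCF642, and 251 and 249 with CCF642-34. In deposited CPM, TALDO1 overlapped between CCF642 and DMSO, and after TMM scaling it did not. Its log2 fold changes were 0.17 (limma adjusted p = 0.0009) and 0.31 (limma adjusted p = 3.68e-08), and scaled by library total the first was 0.03 (limma adjusted p = 0.509).

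RPIA converts ribulose 5-phosphate to ribose 5-phosphate, the sugar of nucleotides. It had 26.1 and 29.5 CPM in DMSO, 14.7 and 13.2 with CCF642, and 15.8 with each CCF642-34 library. It did not overlap with DMSO and fell by 0.82 (limma adjusted p = 1.69e-09) and 0.69 (limma adjusted p = 1.28e-07) on the log2 scale. RPE, the epimerase acting on the same substrate, had 46.6 and 43.6 CPM in DMSO, 42.3 and 43.2 with CCF642, and 44.2 and 48.1 with CCF642-34, and it passed neither test (0.06 and 0.12).

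Ratios of members within a library do not depend on the scaling between libraries. They were chosen after the values were seen, are not corrected for gene length, and can be read only for their change between groups. The summed CPM of the 6 pentose phosphate members was 7.65% and 7.60% of the summed glycolysis CPM in DMSO, 9.80% and 10.0% with CCF642, and 10.3% and 10.1% with CCF642-34. This share was higher in all 4 treated libraries, with means of 7.62% ± 0.04, 9.90% ± 0.14 and 10.2% ± 0.13 (SD, n = 2 libraries each). Both sums moved. The mean glycolysis sum fell from 1.19% of all reads in DMSO to 0.98% with CCF642 and 1.04% with CCF642-34. The mean pentose phosphate sum went from 0.091% to 0.097% and 0.107%. TKT was its largest part, with 472 and 464 of 909 and 910 CPM in DMSO. TKT over TPI1, the transketolase gene beside that of the enzyme that handles its triose product, was 0.680 and 0.651 in DMSO, 1.09 and 1.12 with CCF642, and 0.992 and 0.999 with CCF642-34. PGD over GPI, genes of the oxidative and the glycolytic route from glucose 6-phosphate, was 0.217 and 0.218 in DMSO, 0.292 and 0.283 with CCF642, and 0.299 and 0.290 with CCF642-34.

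Isozyme ratios moved as well. LDHA over LDHB was 1.44 and 1.40 in DMSO, 1.12 and 1.13 with CCF642, and 1.03 and 0.9998 with CCF642-34, and HK2 over HK1 was 4.17 and 3.91, then 2.98 and 2.71, then 2.60 and 2.71. SLC2A3 over SLC2A1 went from 1.03 and 1.02 in DMSO to 5.82 and 6.28 with CCF642 and to 3.77 and 3.74 with CCF642-34. None of these ratios overlapped between DMSO and a treated group. They too were chosen after the values were seen, from genes that had moved apart, so this adds no support of its own. With 2 libraries against 2, an exact two-sided permutation test cannot give a p below 0.333, so no p is given for them.

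**Figure D3:**
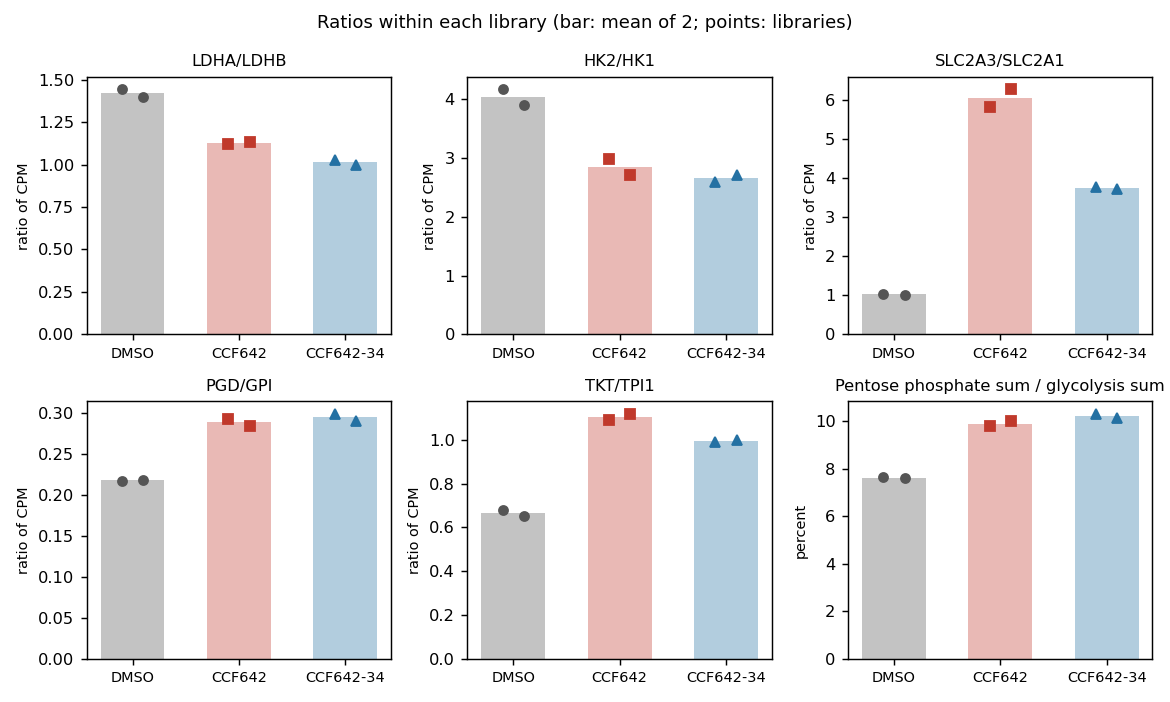
Ratios of CPM between members within each of the 6 libraries, by group, with 1 point for each library and a bar at the group mean. The ratios were chosen after the values were seen. The treated points lie apart from the DMSO points in each panel, as for the pentose phosphate sum, at 7.62% of the glycolysis sum in DMSO, 9.90% with CCF642 and 10.2% with CCF642-34.

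The inhibitors were given at the same dose and time, so they were compared directly. Across the 30 members, 12 passed this test with CCF642-34 against CCF642, when 33.4% of all genes did (15.9% higher and 17.4% lower): 10 were higher with CCF642-34 and 2 lower. Those lower were SLC2A3 (log2 difference −0.54, limma adjusted p = 9.65e-12) and PFKFB3 (−0.79, limma adjusted p = 9.85e-10), the members that rose most with CCF642. Among glycolysis members, those higher with CCF642-34 were GPI, TPI1, PGK1, PGAM1, ENO1 and LDHB, with the difference for PGAM1 at 0.26 (limma adjusted p = 3.8e-06) and for LDHB and TPI1 at 0.21 and 0.20. PDK1, PGLS, PGD and TALDO1 made up the others. Scaled by library total, 16 were higher and 2 lower, but that scaling also moved the median of all genes up, to 0.05. After TMM scaling, the median difference was 0.08 for glycolysis and 0.13 for the pentose phosphate pathway, beside 0.0093 for all genes.

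Several of the genes that changed most against DMSO did not pass the test between the inhibitors after TMM scaling. The log2 difference of LDHA was 0.06 (95% confidence interval −0.01 to 0.13, limma adjusted p = 0.198), that of HK2 was 0.08 (−0.05 to 0.20, limma adjusted p = 0.357), and that of PDK3 was 0.16 (−0.05 to 0.36, limma adjusted p = 0.252). For SLC16A1 it was 0.12 (0.01 to 0.23, limma adjusted p = 0.0838), for TKT 0.05 (−0.03 to 0.13, limma adjusted p = 0.324) and for RPIA 0.13 (−0.08 to 0.34, limma adjusted p = 0.349). Scaled by library total, LDHA (0.10, limma adjusted p = 0.0164), SLC16A1 (0.16, limma adjusted p = 0.0156) and TKT (0.10, limma adjusted p = 0.0459) did pass. HK2, PDK3 and RPIA did not pass under that scaling either. The direct comparison rests on few libraries: a linear model that shares no spread between genes called 4 of the 30 members, and leaving out CCF642-34 replicate 1 left 7. The calls of PGLS (limma adjusted p = 0.0437), PGD (limma adjusted p = 0.0349), GPI (limma adjusted p = 0.038) and ENO1 (limma adjusted p = 0.0414) were near the threshold and were lost without either DMSO library, and that of TALDO1 was lost without CCF642-34 replicate 1 (limma adjusted p = 0.0732).

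Other enzymes tied to NADPH lie outside the pathway, and a list of 14 of them, with 13 listed, was examined beside it. With CCF642, 5 were higher and 6 lower, and with CCF642-34, 6 were higher and 4 lower. As shares of the 13, these are 38.5% and 46.2%, then 46.2% and 30.8%, beside 31.8% and 31.3%, then 29.7% and 27.9%, of all genes. ME1, the cytosolic malic enzyme, which makes NADPH, had 35.2 and 33.3 CPM in DMSO, 62.8 and 69.1 with CCF642, and 77.7 and 76.0 with CCF642-34 (log2 fold changes 1.06 and 1.23). IDH1, the cytosolic isocitrate dehydrogenase that makes NADPH, rose too, by 0.50 and 0.71. Among mitochondrial folate genes, MTHFD2 rose from 286 and 284 CPM to 752 and 779 and to 796 and 801 (1.55 and 1.57), and ALDH1L2, which makes NADPH, from 47.9 and 48.6 CPM to 127 and 135 and to 142 and 145 (1.55 and 1.64). MTHFD1L, which makes formate in the same cycle and no NADPH, rose by 0.72 and 0.75. H6PD, the hexose 6-phosphate dehydrogenase of the endoplasmic reticulum lumen, had 23.2 and 26.1 CPM in DMSO, 11.2 and 12.0 with CCF642, and 14.7 and 16.9 with CCF642-34 (−0.90 and −0.53). The log2 fold changes of ME1 and of these folate genes lay above those of PGD, TALDO1 and TKT in both comparisons.

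**Figure D4:**
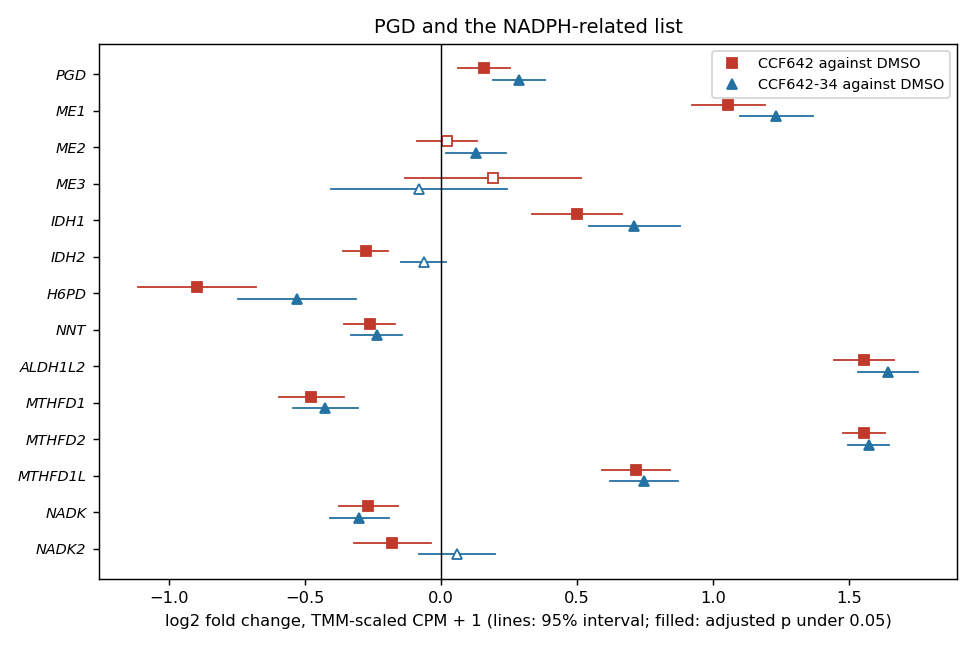
Log2 fold change against DMSO, with 95% confidence intervals, of PGD and the 13 listed NADPH-related genes outside the pathway. ALDH1L2, MTHFD2, MTHFD1L and ME1 lie far right of PGD, and H6PD lies left of 0 at −0.90 and −0.53.

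Genes around the branch points behaved unevenly. Of 15 listed genes of ribose use and of other sugar phosphates, 4 were higher and 9 lower with CCF642, and 5 and 7 with CCF642-34. The higher shares, 26.7% and 33.3%, lay near those of all genes (31.8% and 29.7%), and the lower shares were 60% and 46.7%, beside 31.3% and 27.9%. GFPT1, the first enzyme of hexosamine synthesis from fructose 6-phosphate, was at 1.39 and 1.17 and PGM3, a later enzyme of that route, at 1.28 and 0.86 on the log2 scale. Lower were PRPS2, which makes the activated ribose of nucleotides (−0.81 and −0.67), DERA, which cleaves deoxyribose phosphate (−0.78 and −0.48), and PRPSAP1 (−0.60 and −0.50), while RBKS, ribokinase, was higher (0.69 and 0.85) at no more than 2.92 CPM. Of 11 listed genes of pyruvate entry, 2 were higher and 4 lower with CCF642 (18.2% and 36.4%), and 2 and 3 with CCF642-34 (18.2% and 27.3%). In that list PDK2, another kinase of the complex, was at −0.51 and −0.35. PDP1, a phosphatase that reverses the kinases, was at 0.64 with CCF642. With CCF642-34 PDP1 was at 0.13 and missed the threshold (limma adjusted p = 0.391).

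Of 19 further isozymes and regulators, 10 were listed, with 1 higher and 4 lower with CCF642 (10% and 40%) and 1 higher and 5 lower with CCF642-34 (10% and 50%). The lactate and pyruvate carrier gene SLC16A7 (−0.70 and −0.58) and ARRDC4 (−0.67 and −0.71), an arrestin of the family that limits glucose uptake, were among those lower. ARRDC4 lay at no more than 2.62 CPM. TXNIP, of the same family, was at −0.23 and −0.06 and passed with CCF642 alone. A hypoxia list joined genes known to respond to hypoxia with HIF1A, ARNT and EPAS1, which encode subunits of HIF factors themselves. Of its 14 listed genes, 6 were higher and 4 lower with CCF642, and 5 and 3 with CCF642-34. With CCF642, HIF1A and ARNT were among those higher and EPAS1 among those lower, so these are not shares of responsive genes alone. HIF1A itself was at 0.68 and 0.24 and MXI1 at 0.42 and 0.56, and smaller increases were those of VEGFA (0.37 and 0.35) and NDRG1 (0.31 and 0.29). EGLN1, which marks HIF for destruction, was at −0.73 and −0.53, and ADM (−0.54 and −0.58) and EPAS1 (−0.46 and −0.61) were lower too. The shares of the hypoxia list, 42.9% higher and 28.6% lower with CCF642 and 35.7% and 21.4% with CCF642-34, stand beside 31.8%, 31.3%, 29.7% and 27.9% of all genes. Of the line's own 9 markers, 4 were higher (IRF4, PRDM1, XBP1 and SLAMF7) and 5 lower with CCF642, against 2 and 5 with CCF642-34. The largest of these changes were those of SDC1 (−1.67 and −1.12), JCHAIN (−1.10 and −0.79), TNFRSF17 (−1.06 and −0.81) and IRF4 (0.90 and 1.11), and whether this bears on the metabolic genes was not tested.

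Divided by the length of 1 annotated transcript for each gene, the DMSO levels placed GAPDH highest among the members, at 1907 CPM per kilobase, and ALDOA (758) and TPI1 (571) after it. TALDO1 and TKT, at 159 and 155 CPM per kilobase, were of like level to each other, and PGD was at 75.3. SLC2A3 was at 12.0 and HK2 at 15.6 CPM per kilobase, against 6.19 for HK1, and PFKFB4 was lowest at 0.49. The other pentose phosphate genes lay lower, with RPE at 17.6, RPIA at 15.1 and PGLS at 12.0 CPM per kilobase. These levels are approximate, since the transcripts in use were not measured.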

How the data were processed

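Gene expression was measured by polyA RNA sequencing in 6 MM1.S libraries, 2 each with DMSO, CCF642 and CCF642-34. The authors deposited CPM per gene for each library, and the submitters' notes list STAR, edgeR 3.24.3, limma 3.38.3 and hg19, without saying how each was used. A series-wide matrix with identical values was left aside. The deposited CPM are whole multiples of 1 read in 100% of values (tolerance 0.01 read), with the step of 1 read taken from the spacing of the values in every library, which gave the depth. The lowest values of the CCF642-34 libraries were 5 and 3 reads, not 1, so their step rests on the spacing alone. No gene with a highest CPM below 1.50 was listed.

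CPM were scaled by TMM (edgeR 4.0.16) and log2(CPM + 1) was fitted with limma 3.58.1 in R 4.3.3, all 3 groups together, two-sided, with Benjamini-Hochberg adjustment over 11048 genes, with no filter on low values and no replicate term. The fit had 3 residual degrees of freedom and a prior of 42.92 from sharing spread across genes, which makes small p-values possible with 2 libraries a group. The fit was tested on simulated data. Alternatives were other scalings, pseudocounts of 0.1 and 2, a mean CPM of at least 5, edgeR and DESeq2 1.42.0 on the recovered reads, a gene-wise model, only the groups compared, a replicate term and leaving out each library. Values in every library are given for pentose phosphate members and for members past the threshold by at least 0.5 on the log2 scale, others with their counts. Per-library values of SLC2A1 and GAPDH were added after the values were seen. Members and lists were chosen with earlier results of these data known. Promoters came from RefSeq (GRCh38.p14), and no coordinates were converted.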

Additional observations from a re-analysis of the deposited data

How the results depend on the processing

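With library totals alone, the glycolysis medians became −0.38 (CCF642), −0.24 (CCF642-34) and 0.13 (direct difference), and the pentose phosphate medians −0.025, 0.125 and 0.172. The same scaling turned GAPDH to −0.042, −0.032 and 0.00960 and RPE with CCF642 to −0.076. Leaving out 1 library at a time gave glycolysis medians of −0.270 to −0.248 (CCF642), −0.163 to −0.134 (CCF642-34) and 0.085 to 0.094 (direct), pentose phosphate medians of 0.087 to 0.119, 0.195 to 0.247 and 0.111 to 0.141, and 22 to 25, 18 to 22 and 7 to 13 members called. In those fits the lone library of a group was assumed to vary like the other groups. Small values changed sign there, namely HK1 with CCF642 (−0.071 to 0.054) and the direct differences of PFKL (−0.00854 to 0.0420), PFKM (−0.011 to 0.035), ENO2 (−0.030 to 0.086) and SLC16A3 (−0.247 to 0.141). A gene-wise model called 4 members in the direct comparison, and 17 at an unadjusted p under 0.05. With CCF642-34 against DMSO it called 16 in place of 21, without PFKFB3, PGK1, ENO2, LDHB and PDK1, and with CCF642 it lost GAPDH. With replicate number as a block, 24, 21 and 10 members were called. The deviations of same-numbered libraries correlated weakly at most (r = −0.047, −0.077 and 0.111 over 9390 genes). The labels do not say whether the numbers mark a shared culture or day. These correlations cannot settle it, since a weak shared effect could leave values this small. The number of libraries and the depth of each gene limit what can be detected, and genes of few reads such as PFKFB4 missed the threshold at differences up to 0.46.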
